A study of Homo sapiens with 2 samples.

Results

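The genes of chromosome 7 were compared between SAS cells that carried an ASC vector and SAS cells that carried the empty vector. The 100 genes nearest the short-arm end of the chromosome mostly had higher RPKM in the ASC library, and most of the 528 genes beyond them had lower RPKM. The members are all genes of chromosome 7 with at least 1 RPKM in either library, ordered by the lowest start among their transcripts. This gave 628 of the 1214 chromosome 7 genes listed, out of 12470 compared genes and 24136 listed genes in all. Genes with a start below 26250000 (hg38) are called the terminal stretch here, and those at or above it the remainder. The position was chosen by the log2 ratios described here, so the difference between the stretches is a description and carries no test.

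SAS is an established human oral cancer cell line, and ASC is an adaptor protein of inflammasomes, which join sensors of infection and damage to caspase-1. The control cells carried the plasmid pLKO.AS2.neo, and the ASC cells carried the same plasmid with the ASC sequence, pLKO.AS2.neo.ASC. Both were kept in DMEM with 10% serum, G418 at 200 µg/ml and puromycin at 2 µg/ml, so selection was shared by the groups. The group of the ASC sample was taken from its vector label, because its genotype label names the cell line. The labels do not say whether either line was a clone or a pool of clones.

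Each group had 1 library of polyadenylated RNA, with 31426491 listed reads for ASC and 31289581 for the control. There is no replicate check on any difference, and no p-value is given. Intervals cover only the error of counting, and reads are not independent molecules. PYCARD, the gene that encodes ASC, stood at 266.5 RPKM with ASC and 1.36 RPKM in the control. All 10 epithelial and squamous markers reached 1 RPKM in both libraries, with a summed level of 3850 RPKM against 3040 RPKM. The members went both ways. KRT8 (1136 against 763 RPKM) and KRT18 (1363 against 967.1 RPKM) were higher with ASC, whereas KRT5 (311 against 421 RPKM) and TP63 (45.97 against 54.46 RPKM) were lower. None of the 4 listed fibroblast markers reached 1 RPKM in both libraries (summed 0.645 against 0.236 RPKM). CD68 alone of 2 listed blood markers and CDH5 alone of 3 endothelial markers did.

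Genes lie along a chromosome in a fixed order, so the ratio of a gene between the libraries can be read against those of the genes around it. Chromosome 7 carries genes for the cytoskeleton near its short-arm end (ACTB, RAC1, FSCN1), the HOXA cluster of homeodomain transcription factors on the short arm, and the receptors EGFR and MET, both well known from squamous cancers, beyond it. It also carries single genes that respond to signals, such as the cytokine gene IL6 and INHBA, whose product forms activin A.

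The following promoter sequences belong to the genes that the results turn on. CYCS and NFE2L3 are the neighbouring compared genes between which the best single split of the log2 ratios fell. IL6, INHBA and TRPV6 were far above their neighbours, and ITGB8 far below. TP53TG1 and CROT are a pair of head-to-head genes that were both below their neighbours. Each sequence is the 250 bases before the RefSeq start of the gene (GRCh38.p14), on the gene's strand, except that of TP53TG1 and CROT, which is the 171 bases between the starts of the pair, on the plus strand. Capitals mark matches, on either strand, to 6 motifs. They are the core promoter motif spelled TATAAA, the GC box with the letters GGGCGG, the box named for its letters CCAAT, the AP-1 motif searched as TGANTCA, the NF-kB motif searched as GGGANTTTC, and the NRF1 motif searched as GCGCNTGCG.
The windows are chr7:25125261-25125510 (minus strand) for CYCS, chr7:26151948-26152197 (plus strand) for NFE2L3, chr7:22726950-22727199 (plus strand) for IL6, chr7:41703091-41703340 (minus strand) for INHBA, chr7:20330650-20330899 (plus strand) for ITGB8, chr7:142885746-142885995 (minus strand) for TRPV6 and chr7:87345493-87345663 (plus strand) for the window between TP53TG1 and CROT.
CYCS: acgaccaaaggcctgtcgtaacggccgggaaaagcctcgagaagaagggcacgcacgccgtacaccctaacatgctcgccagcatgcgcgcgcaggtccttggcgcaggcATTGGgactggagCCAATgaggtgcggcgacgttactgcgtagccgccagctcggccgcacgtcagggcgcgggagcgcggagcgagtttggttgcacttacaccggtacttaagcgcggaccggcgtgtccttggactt
NFE2L3: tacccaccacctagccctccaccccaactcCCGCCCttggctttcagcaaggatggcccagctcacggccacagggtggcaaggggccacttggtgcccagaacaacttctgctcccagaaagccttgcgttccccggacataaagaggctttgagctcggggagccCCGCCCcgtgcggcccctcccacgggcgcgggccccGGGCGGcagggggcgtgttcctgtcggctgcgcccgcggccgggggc
IL6: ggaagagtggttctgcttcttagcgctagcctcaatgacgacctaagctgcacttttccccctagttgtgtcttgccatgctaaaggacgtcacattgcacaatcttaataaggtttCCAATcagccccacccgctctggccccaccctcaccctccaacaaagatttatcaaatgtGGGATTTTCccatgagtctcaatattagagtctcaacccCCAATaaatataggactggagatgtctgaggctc
INHBA: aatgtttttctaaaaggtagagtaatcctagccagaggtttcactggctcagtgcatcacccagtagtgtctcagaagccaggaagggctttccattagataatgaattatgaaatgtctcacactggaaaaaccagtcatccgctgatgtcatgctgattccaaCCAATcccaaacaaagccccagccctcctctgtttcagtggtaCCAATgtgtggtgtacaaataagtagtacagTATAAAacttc
ITGB8: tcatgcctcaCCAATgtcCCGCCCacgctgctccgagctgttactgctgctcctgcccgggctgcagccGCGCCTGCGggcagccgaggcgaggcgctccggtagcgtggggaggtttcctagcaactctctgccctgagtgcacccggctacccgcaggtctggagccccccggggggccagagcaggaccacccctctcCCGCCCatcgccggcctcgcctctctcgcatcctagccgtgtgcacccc
TRPV6: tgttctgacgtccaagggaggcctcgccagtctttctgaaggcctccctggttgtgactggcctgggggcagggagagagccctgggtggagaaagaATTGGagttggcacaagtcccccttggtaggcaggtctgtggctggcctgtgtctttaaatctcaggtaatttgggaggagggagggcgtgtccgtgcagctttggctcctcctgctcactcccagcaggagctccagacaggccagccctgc
TP53TG1-CROT: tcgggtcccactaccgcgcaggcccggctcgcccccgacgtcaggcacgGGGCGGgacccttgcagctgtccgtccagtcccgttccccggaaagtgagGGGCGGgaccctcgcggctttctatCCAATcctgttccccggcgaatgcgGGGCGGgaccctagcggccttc

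Among 35116 RefSeq windows of the same length, 10.7% held the TATA box letters, 42.6% the GC box, 32.0% the CCAAT box, 6.6% the AP-1 letters, 1.1% the NF-kB letters and 6.5% the NRF1 letters. The window of IL6 held GGGATTTTC at positions 178 to 186, counted from the 5′ end of the printed run, and CCAAT at 2 places. INHBA held TATAAA at positions 240 to 245. The window of CYCS had the CCAAT box once on each strand, whereas that of NFE2L3 had 3 GC boxes and no CCAAT box. The TP53TG1 and CROT window held GGGCGG at positions 50, 100 and 150. A match is a description of the letters only. Of the 628 members, 419 were matched to the RefSeq promoter table.

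The log2 ratio used throughout is log2 of (ASC RPKM + 1) over (control RPKM + 1), which understates the ratio of low genes. In the terminal stretch its median was 0.29, a ratio of 1.23, with quartiles of 0.15 and 0.44 and a range from -1.16 to 1.30. In the remainder the median was -0.17, a ratio of 0.892, with quartiles of -0.30 and -0.028 and a range from -1.23 to 1.32. Above 0 were 84 of 100 genes in the terminal stretch and 113 of 528 in the remainder, where 52% of all compared genes were above 0. The upper quartile of the remainder lay below the lower quartile of the terminal stretch, though the full ranges overlapped.

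The median level in the terminal stretch was 14.1 RPKM with ASC and 12.1 RPKM in the control. In the remainder it was 10.9 RPKM against 12.5 RPKM. Reads listed for the terminal stretch made up 1.003% of all ASC reads and 0.830% of all control reads, and those of the remainder 3.905% and 4.414%. The 2 stretches therefore differed in opposite directions in summed reads as well as in the medians over genes. These reads underlie the RPKM ratios that chose the position, so the sums are not separate support. ACTB alone held 65687 of the 315271 ASC reads of the terminal stretch and 47101 of the 259609 control reads.

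The other chromosomes gave a median of 0.016 over 11842 genes. Their own medians ran from -0.15 on chromosome 2 to 0.16 on chromosome 20. Chromosome 7 as a whole had a median of -0.13, the second lowest of 23 chromosomes after chromosome 2. That value hides both stretches. The terminal stretch alone lay above the median of every chromosome and the remainder alone below. The comparison is uneven, because chromosome 7 was cut by these same ratios and the other chromosomes were taken whole.

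**Figure D1:**
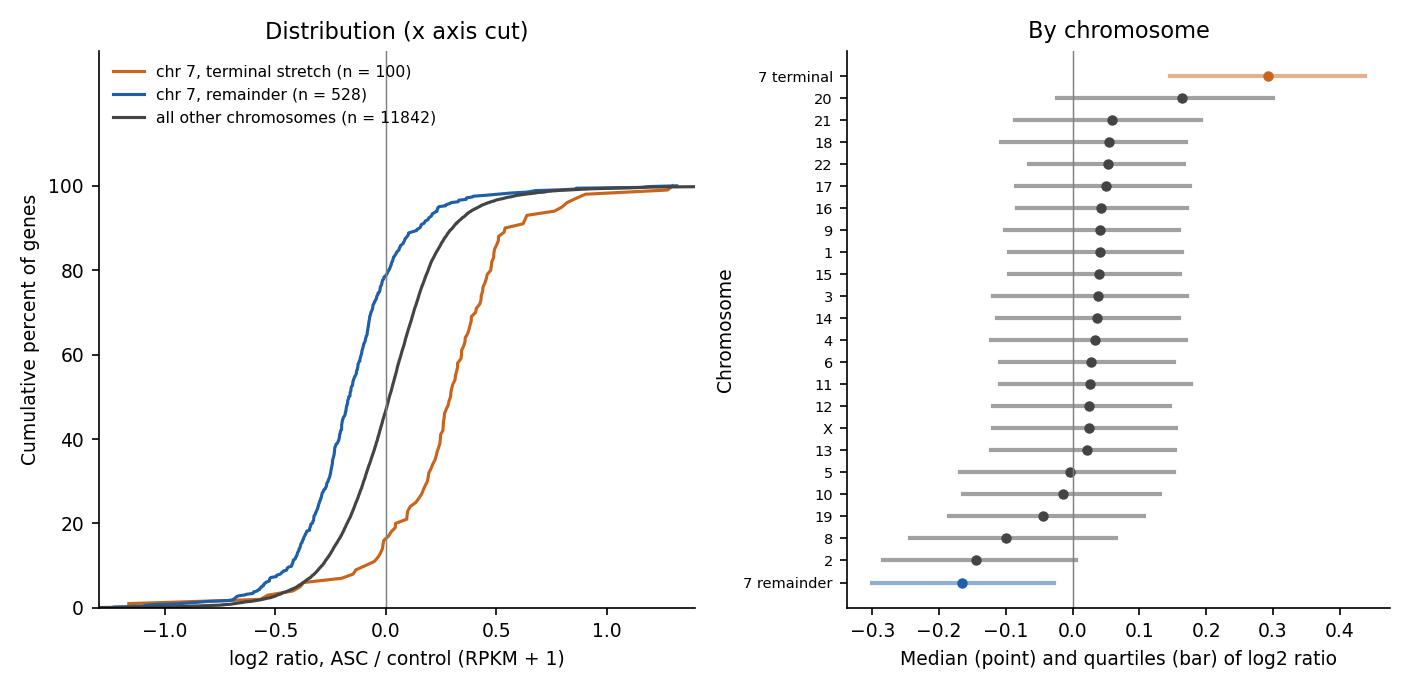
Left, cumulative percent of genes against the log2 ratio of ASC over control (RPKM + 1) for the terminal stretch, the remainder and all other chromosomes; the x axis is cut at both ends. Right, the median (point) and quartiles (bar) of the same ratio for each chromosome, with chromosome 7 drawn as its 2 stretches. Their medians, 0.29 and -0.17, lie outside those of the other chromosomes, which are drawn whole.

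In consecutive blocks of 50 compared genes, 239 over the genome, the 2 blocks with the highest medians were both in the terminal stretch. The first, from AC093627.9 to RAC1, had a median of 0.33 with 47 of 50 genes above 0. The second, from DAGLB to CBX3, had 0.25 with 37 of 50 above 0. The next 2 were on chromosome 20, at 0.22 each. The other 10 blocks of chromosome 7 had medians between -0.21 and -0.11 and stood between place 209 and place 234 from the top. Lower blocks than these were found on chromosomes 2, 5 and 8. The 2 terminal blocks hold the same 100 genes that the position sets apart. The position was chosen by these ratios, so the rank of those blocks is a description only. All 10 blocks of the remainder had medians below 0, and none was the lowest of the genome. Genes after the last full block, which ends at SLC4A2, are in no block.

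Large differences were few in both stretches. In the terminal stretch 2 genes were at least 2-fold higher and in the remainder 3 were, against 0.617% of all compared genes. At least 2-fold lower were 1 and 4 genes, against 0.265%. The 4 were AKAP9, HOXA-AS2, GS1-114I9.3 (0.6 against 33.6 estimated reads) and the pseudogene RP4-756H11.5 (0.3 against 16.6). GS1-114I9.3 and RP4-756H11.5 lie near the floor. At 1.5-fold, 10 genes of the terminal stretch and 9 of the remainder were higher (2.38% of all compared genes), and 1 and 20 were lower (1.81%). Counting intervals of the read ratio lay wholly above 0 for 75 genes of the terminal stretch and 38 of the remainder, where 28.5% of all genes did. They lay wholly below 0 for 7 and 309 genes, where 27% of all genes did. Since the members were chosen by the same ratios, nothing is read from these shares beyond their size.

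**Figure D2:**
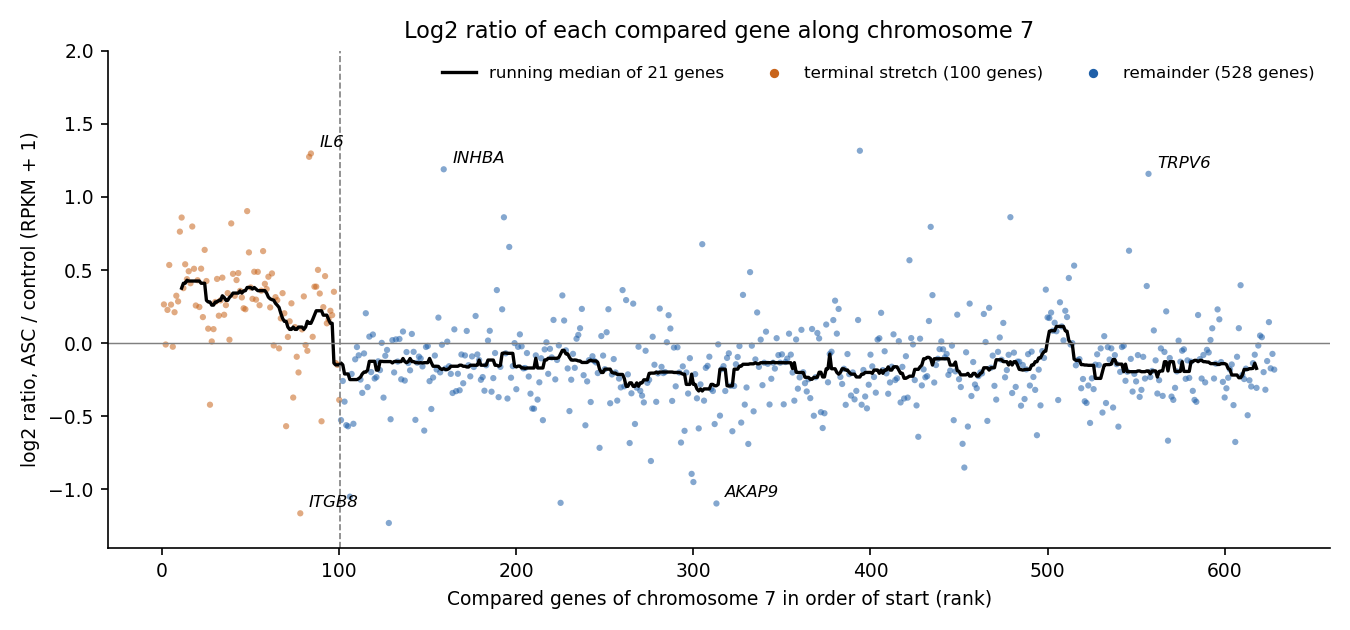
Log2 ratio of ASC over control (RPKM + 1) for the 628 compared genes of chromosome 7, in order of start from the short-arm end; each point is 1 gene, the black line is the running median of 21 genes and the dashed line is the position that separates the stretches. The running median stays above 0 up to the change of sign and below 0 after it, apart from 13 windows near rank 506.

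The single split of the gene order that left the smallest squared deviation from the 2 means fell between CYCS and NFE2L3, 3 compared genes before the position that defines the stretches. It left 97 genes with a mean of 0.29 and 84 above 0, and 531 genes with a mean of -0.15 and 113 above 0. This split removed 24.0% of the squared deviation of the log2 ratios along the chromosome. CYCS starts at 25120091 and NFE2L3 at 26152240, so this split places the change of sign within 1032149 bases. Only 2 other listed genes start in that interval, and neither reached 1 RPKM. C7orf31 had 37 reads with ASC and 47 in the control, and the lincRNA CTD-2227E11.1 had 2 and 10.

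The last compared genes before the split were higher in the ASC library. OSBPL3, an oxysterol-binding protein gene, stood at 23.3 against 20.3 RPKM (log2 ratio 0.19). CYCS, which encodes cytochrome c, stood at 85.1 against 66.5 RPKM, or 0.35 on the log2 scale (95% interval of the read ratio 0.40 to 0.53). CYCS lies on the minus strand from 25120091 to 25125361.

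The genes after it were lower. NFE2L3, a transcription factor gene of the NRF family, stood at 8.40 against 9.33 RPKM, and its read interval (-0.24 to 0.025) includes 0. HNRNPA2B1, an abundant RNA-binding protein, stood at 430.5 against 477.2 RPKM, or -0.15 on the log2 scale (interval -0.20 to -0.16). CBX3, which encodes the heterochromatin protein HP1 gamma, stood at 157.9 against 207 RPKM, or -0.39 on the log2 scale (interval -0.44 to -0.36). HNRNPA2B1 and CBX3 overlap in the annotation and are read in opposite directions, and the library kit does not mark strand, so their reads can be mixed where they overlap.

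CBX3 is the last gene inside the terminal stretch. The first gene outside it, SNX10, a sorting nexin gene that starts at 26291895, stood at 1.774 against 2.996 RPKM (log2 ratio -0.53). SKAP2, an adaptor protein gene, stood at 5.47 against 6.74 RPKM (log2 ratio -0.26). NFE2L3, HNRNPA2B1 and CBX3 therefore had the sign of the remainder although their starts place them in the terminal stretch. At the other threshold, TCAF2 (0.998 against 1.05 RPKM) was just inside the minimum of 1 RPKM, and CTB-133P21.1 (0.994 against 0.955 RPKM) just outside.

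**Figure D3:**
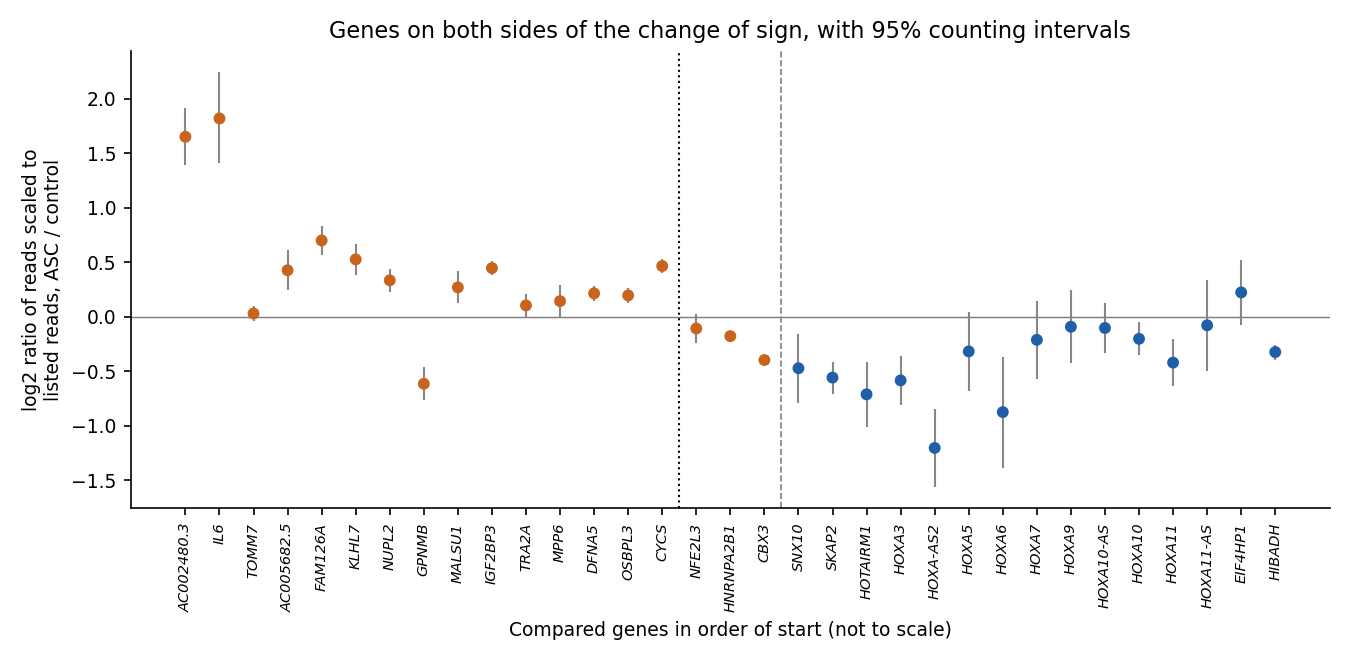
Log2 ratio of reads scaled to listed reads, ASC over control, with 95% exact counting intervals, for the last 18 genes of the terminal stretch (orange) and 15 of the first 16 of the remainder (blue), in order of start. The dotted line is the best single split, between CYCS (0.47) and NFE2L3 (-0.11), and the dashed line the position that defines the stretches.

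The HOXA cluster follows. Of 19 listed HOXA genes and their antisense and host RNAs, 12 were compared, and all 12 were below 0 with a median of -0.29. In the remainder as a whole 415 of 528 genes were below 0, with a median of -0.17. The cluster was uneven, with log2 ratios from -1.05 to -0.027. HOXA3 stood at 3.36 against 5.46 RPKM and HOXA10, the most abundant of them, at 11.1 against 13.3 RPKM. The noncoding RNA HOTAIRM1 stood at 5.79 against 9.02 RPKM. The lowest ratio was that of the antisense RNA HOXA-AS2, at 1.86 against 4.91 RPKM, and the highest that of HOXA9, at 3.18 against 3.25 RPKM. Several of these RNAs overlap on opposite strands and cannot be told apart by strand here.

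The terminal stretch was not even. When the gene order was divided into 3 pieces, the 62 genes up to UMAD1 had a mean of 0.36 and the 35 genes from NDUFA4 to CYCS a mean of 0.15, which together removed 25.5% of the squared deviation. With 5 pieces (29% of the squared deviation), a run of 13 genes from AGR2 to EEF1A1P6 stood apart inside it, with a mean of -0.11 and 6 genes above 0. The median of this run was only -0.013, and its mean was pulled down by ITGB8 (log2 ratio -1.16) and AGR2 (-0.57). The 15 genes from AC002480.3 to CYCS after it had a mean of 0.36, and the 11 from NFE2L3 to HOXA6 a mean of -0.44 with none above 0. Not every division kept the break between CYCS and NFE2L3. With 4 pieces (27.6%) the last piece began at GPNMB (start 23235967). With 6 pieces (30.2%) NFE2L3 and HNRNPA2B1 fell in a piece of 11 genes with a mean of 0.12, and the next piece began at CBX3 (start 26201162). The running median of 21 genes was above 0 in 86 of 87 windows before the split, with its highest value, 0.43, at AC091729.9, and first fell below 0 at CYCS.

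After the split the running median was above 0 in 13 of 521 windows. These were centred on consecutive genes from SMKR1 (start 129502479) to AC058791.1 (start 130876809), with a highest value of 0.11. Of the 13 genes at their centres only CPA4 was below 0. UBE2H, a ubiquitin-conjugating enzyme gene, stood at 66.0 against 56.9 RPKM, COPG2, a coatomer subunit gene, at 38.7 against 33.1 RPKM, and the imprinted gene MEST at 236.4 against 233.2 RPKM. The lowest running median, -0.33, was at ADAM22.

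By the mean of both libraries, the highest levels in the terminal stretch were those of ACTB, which encodes beta-actin, at 999.3 against 719 RPKM (log2 ratio 0.47), HNRNPA2B1, RAC1, CBX3 and TOMM7. RAC1, a small GTPase that drives actin assembly, stood at 158.2 against 121.3 RPKM (0.38). TOMM7, of the mitochondrial import pore, stood at 138.9 against 134.8 RPKM (0.043) and its read interval (-0.036 to 0.095) includes 0.

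In the remainder the highest was PPIA, which encodes cyclophilin A, at 1846 against 2314 RPKM (-0.33). The caveolin genes CAV1 and CAV2 stood at 583.9 against 710.6 RPKM (-0.28) and 258.4 against 282.7 RPKM (-0.13). CHCHD2 stood at 334.9 against 392.5 RPKM (-0.23), and ATP5J2, an ATP synthase subunit gene, at 233.6 against 312.6 RPKM (-0.42). All 5 were lower in the ASC library, and their counting intervals all lay below 0.

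The genes of the terminal stretch at least 1.5-fold higher were IL6, AC002480.3, CYTH3, COX19, FBXL18, MAFK, ADAP1, SNX8, PMS2CL and FAM220A. CYTH3, an exchange factor for ARF GTPases, stood at 12.3 against 6.14 RPKM (log2 ratio 0.90). FBXL18, an F-box protein gene, stood at 9.33 against 4.86 RPKM (0.82), and MAFK, a small MAF transcription factor gene, at 30.0 against 16.8 RPKM (0.80). COX19 (13.6 against 7.05 RPKM) and ADAP1 (18.7 against 10.6 RPKM) overlap on the same strand and can share reads. SNX8 stood at 7.65 against 4.56 RPKM (0.64), but its reads, 629 against 528, gave a smaller read ratio of 0.25 (interval 0.077 to 0.42). RPKM divides the reads of each transcript by its length, and it can therefore differ from the read ratio where reads were assigned to other transcripts.

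Below 0 in the terminal stretch were 16 genes, 3 of which lie after the split. The read interval of 7 of the 16 lay wholly below 0: LFNG, AGR2, RPL21P75, ITGB8, GPNMB, HNRNPA2B1 and CBX3. AGR2, a disulfide isomerase gene of secretory epithelia, stood at 1.36 against 2.50 RPKM and had 41 against 116 reads. RPL21P75 is a pseudogene of a ribosomal protein gene, and its reads can be shared with other copies.

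Departure from the neighbours was measured as a gene's log2 ratio minus the median of the 20 nearest compared genes. Its median absolute value was 0.14, and 81.4% of members lay within 0.3 of their neighbours. Departing upward past 1.5-fold were 18 genes, 2 in the terminal stretch and 16 in the remainder, where 2.32% of all genes did on their own chromosomes. Departing downward were 12 genes, 4 and 8, where 1.72% did. Past 2-fold were 6 upward (0.578% of all genes) and 3 downward (0.209%). The 3 were ITGB8 and the loci GS1-114I9.3 and RP4-756H11.5, which had 0.6 and 0.3 estimated reads with ASC. All departing genes were selected on the same ratios, so their departures are a description.

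INHBA encodes the beta A subunit of activin and inhibin and lies on the minus strand from 41685114 to 41705834. It stood at 8.33 against 3.09 RPKM and had 1346 against 419 reads, in a neighbourhood with a median of -0.18, which gave a departure of 1.37. Its main transcript, ENST00000242208.4, held 85.9% of its reads with ASC and 73.9% in the control. INHBA was thus 2.69-fold higher in RPKM amid genes that were mostly lower.

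TRPV6, a calcium channel gene of epithelia, lies on the minus strand from 142871203 to 142885762. It stood at 7.89 against 2.99 RPKM and had 1058 against 386 reads and a departure of 1.36. Its neighbour EPHB6, an ephrin receptor gene, stood at 3.47 against 2.41 RPKM with a departure of 0.59. They are consecutive compared genes on opposite strands, and both departed upward. EPHB6 ends at 142871094, so the 2 genes meet closely at their ends without overlapping. The library kit does not mark strand, so reads that run past the end of either gene can be counted for the other.

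IL6, the inflammatory cytokine gene, lies on the plus strand from 22725884 to 22732002. It stood at 5.94 against 1.82 RPKM and had 220 against 62 reads, a log2 ratio of 1.30 and a departure of 1.17. The interval of its read ratio, 1.41 to 2.25, is wide at this depth. The preceding compared gene, the antisense RNA AC002480.3, stood at 6.01 against 1.90 RPKM and had 521 against 165 reads and a departure of 1.15. AC002480.3 ends at 22573996, so the 2 are neighbours in the order of compared genes and do not overlap. It overlaps STEAP1B and AC002480.5 on the other strand, and IL6 overlaps AC073072.5. The library kit does not mark strand, so reads can be mixed where these genes overlap. IL6 and AC002480.3 were the only members of the terminal stretch that departed upward past 1.5-fold.

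The other upward genes with at least 5 RPKM lay in the remainder. STEAP4, a metalloreductase gene, stood at 6.52 against 3.70 RPKM (departure 1.01). UPP1, which encodes uridine phosphorylase and was far more abundant, stood at 116.4 against 63.6 RPKM (0.93). CCDC71L stood at 29.8 against 16.8 RPKM (0.92) and COBL, an actin nucleator gene, at 8.53 against 5.04 RPKM (0.77).

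PRKAG2, a regulatory subunit of the energy sensor AMPK, stood at 14.6 against 10.9 RPKM (0.64). SDHAF3, an assembly factor gene of succinate dehydrogenase, had 9.71 against 6.65 RPKM (0.63), but its reads, 308 against 297, differed little and its read interval (-0.19 to 0.28) includes 0. Its main transcript held 42.0% of the reads with ASC and 64.8% in the control.

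Lower genes that departed upward included PRRT4 (1.85 against 0.567 RPKM), DENND2A (1.44 against 0.573 RPKM), PODXL, which encodes podocalyxin (1.71 against 0.873 RPKM), and RELN, which encodes the matrix protein reelin (4.50 against 2.71 RPKM). GTF2IRD2 and the pseudogene PMS2P5 also did, and both lie among near-identical copies that can share reads, so their values are uncertain.

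Of the genes that departed downward, ITGB8 was furthest. It encodes the integrin beta 8 chain, which binds latent TGF-beta, and lies on the plus strand from 20330702 to 20415754. ITGB8 stood at 1.96 against 5.63 RPKM and had 517 against 1282 reads, 2.87-fold lower in RPKM and with a departure of -1.29. Its neighbours had a median of 0.13. It lies in the run of 13 genes from AGR2 to EEF1A1P6, and was its lowest member.

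GPNMB, a transmembrane glycoprotein gene, stood at 6.32 against 9.60 RPKM (departure -0.77). LFNG, whose product adds sugars to Notch receptors, stood at 3.88 against 5.54 RPKM (-0.71). With ITGB8 and AGR2 (-0.73) these were the 4 genes of the terminal stretch that departed downward past 1.5-fold.

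In the remainder, AKAP9, a scaffold gene of centrosome and Golgi, stood at 6.03 against 14.03 RPKM and had 1983 against 4699 reads and a departure of -0.81. CROT, a carnitine acyltransferase gene of peroxisomes, stood at 3.84 against 8.35 RPKM (-0.70). TP53TG1, a noncoding RNA gene that starts 171 bases from CROT on the other strand, stood at 9.90 against 19.3 RPKM (-0.69). Both genes of this head-to-head pair were lower, by 2.17-fold for CROT and 1.95-fold for TP53TG1 in RPKM and had 325 against 701 reads for CROT and 283 against 532 for TP53TG1. HNRNPA2B1 and CBX3, with 696 bases between their RefSeq starts, are another head-to-head pair, and neither departed past 1.5-fold.

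HSPB1, which encodes the small heat shock protein HSP27, stood at 180.8 against 316.9 RPKM (departure -0.60), with 6115.7 against 10668.6 estimated reads. MLXIPL, which encodes the glucose-responsive factor ChREBP, stood at 2.75 against 5.16 RPKM (-0.56). SEM1, a proteasome subunit gene, stood at 84.5 against 136.9 RPKM (-0.55). CPA4, a carboxypeptidase gene, stood at 98 against 128.7 RPKM (-0.52) within the run of genes around MEST that were above 0. The departures of MLXIPL, SEM1 and CPA4 are short of 1.5-fold. MDFIC (1.05 against 2.70 RPKM) and HOXA-AS2 did depart past it. So did the unnamed locus GS1-114I9.3, with 0.6 against 33.6 estimated reads, and the pseudogene RP4-756H11.5, with 0.3 against 16.6, both of which overlap other listed genes.

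**Figure D4:**
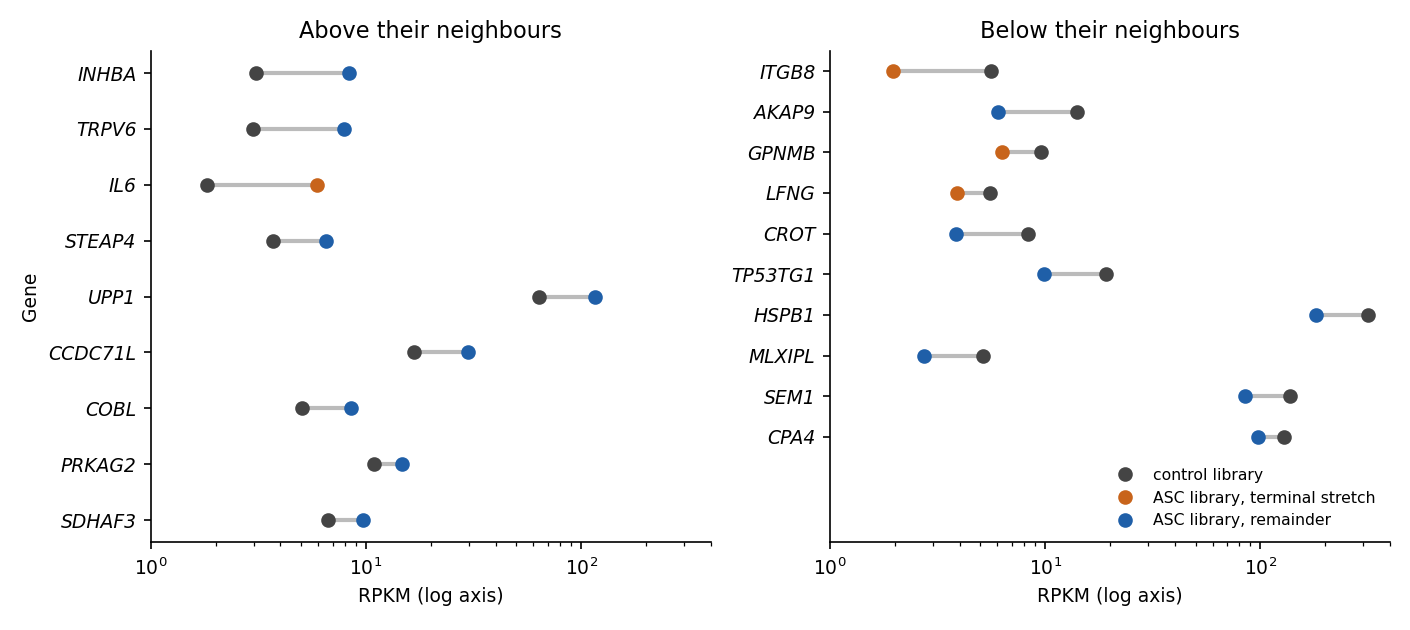
RPKM in the control library (grey) and the ASC library (orange, terminal stretch; blue, remainder) on a log axis, for 9 genes above and 10 below the median of their 20 nearest compared genes, in order of departure; all have at least 5 RPKM in either library and a line joins the values of a gene. INHBA (8.33 against 3.09 RPKM) heads the left panel and ITGB8 (1.96 against 5.63 RPKM) the right.

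The compared genes were also grouped by role, in 8 lists of chromosome 7 genes. The lists are loose. The sorting nexin genes SNX8 and SNX10 were placed in the RNA list and the transcription list. KDELR2, TMEM106B and LAMTOR4 were placed with the cytoskeleton genes. Over all compared genes the median was 0.010 and 52% were above 0. In the terminal stretch 84 of 100 genes were above 0 (median 0.29), and in the remainder 113 of 528 (-0.17). The counts of each list are to be read against those of its stretch, and nothing is read from them about roles. Of genes for RNA processing, translation, replication and the cell cycle, all 15 in the terminal stretch were above 0, with a median of 0.32, against 5 of 29 in the remainder, with a median of -0.11. EIF3B, a subunit of a translation initiation factor, stood at 151.2 against 112.4 RPKM (log2 ratio 0.42), and SUN1, of the nuclear envelope, at 91.8 against 73.1 RPKM (0.32). In the remainder MCM7, of the replicative helicase, stood at 217.7 against 274 RPKM (-0.33).

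For the list of actin, membrane-coat, adhesion and matrix genes, 5 of 5 were above 0 in the terminal stretch (median 0.32) and 2 of 21 in the remainder (-0.23). The 5 were ACTB, FSCN1, KDELR2, TSPAN13 and TMEM106B, which are not all cytoskeletal genes. FSCN1, which encodes the actin bundler fascin, stood at 128.8 against 102.7 RPKM (0.32). In the remainder CALD1, which encodes caldesmon, stood at 34.0 against 50.1 RPKM (-0.55), LAMTOR4 stood at 64.8 against 91.8 RPKM (-0.50), and PODXL was one of the 2 above 0. Chaperone, ubiquitin and proteasome genes gave 5 of 5 (0.43) and 4 of 20 (-0.11).

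Metabolic and mitochondrial genes gave 4 of 5 above 0 (0.18) and 2 of 35 (-0.23). The 2 were UPP1 and AASS, a lysine-degrading enzyme gene, at 2.33 against 1.82 RPKM (0.24). PON2, a paraoxonase gene, stood at 26.8 against 36.2 RPKM (-0.42). Zinc finger genes gave 2 of 2 (0.31) and 6 of 30 (-0.13). Low members of that family, such as ZNF92 (1.87 against 3.13 RPKM, -0.53) and ZNF138 (2.30 against 3.51 RPKM, -0.45), had the lowest ratios.

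Transcription and chromatin genes gave 5 of 8 above 0 (0.027) and 3 of 26 (-0.24). In the terminal stretch NFE2L3, HNRNPA2B1 and CBX3, which lie after the split, were the 3 below 0. KMT2E, a chromatin reader gene, stood at 5.69 against 9.43 RPKM (-0.64), the lowest of the remainder after MLXIPL.

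Receptor and signalling genes gave 4 of 7 (0.26) and 5 of 26 (-0.19). GNA12, a G protein alpha subunit gene in the terminal stretch, stood at 30.3 against 22.1 RPKM (0.44). EGFR stood at 106.3 against 118.6 RPKM (-0.16) and MET at 161.3 against 200 RPKM (-0.31), both in the remainder. Their counting intervals, -0.18 to -0.14 and -0.36 to -0.32, lay below 0. Neither departed from its neighbours by more than 0.1.

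Of the list of secreted ligands and their binding proteins, 2 of 4 were above 0 in the terminal stretch (median 0.0002) and in the remainder 4 of 7 (0.15). The 2 above 0 in the terminal stretch were IL6 and PDGFA, a platelet-derived growth factor gene, at 33.5 against 22.8 RPKM (0.53). The 2 below 0 were GPNMB (-0.53) and AGR2 (-0.57), which encode a transmembrane glycoprotein and a disulfide isomerase and are not ligands in the strict sense. In the remainder IGFBP3, an IGF-binding protein gene, stood at 159.4 against 123.7 RPKM (0.36), and NAMPT, which encodes an NAD-synthesis enzyme that is also secreted, at 132.3 against 119 RPKM (0.15). The semaphorin gene SEMA3E, at 0.4998 against 1.403 RPKM, had a log2 ratio of -0.68. Members of this list made up 3 of the 5 chromosome 7 genes at least 2-fold higher, 1 in the terminal stretch and 2 in the remainder. Over all compared genes 0.617% were at least 2-fold higher. The list was written with earlier results of these data known, so nothing is read from this count.

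**Figure D5:**
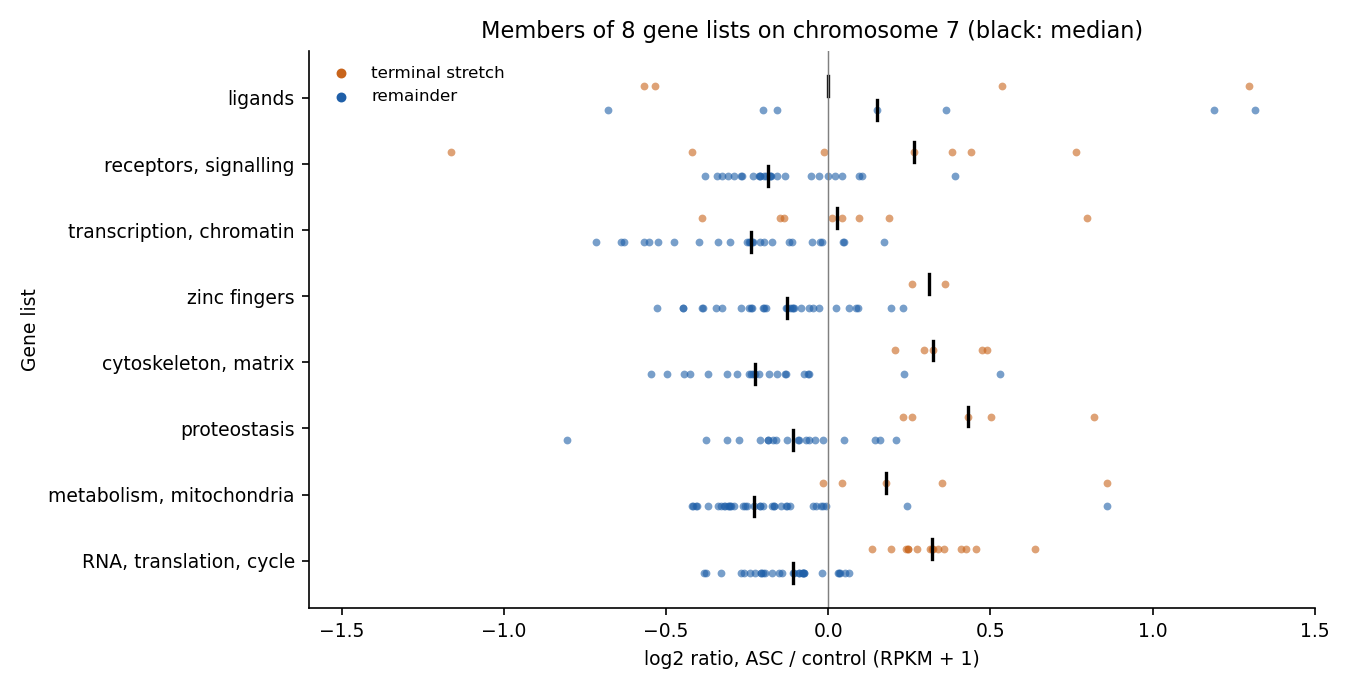
Log2 ratio of ASC over control (RPKM + 1) of each compared member of 8 gene lists, with orange points for the terminal stretch, blue points for the remainder and black bars for medians. The medians lie above 0 for the terminal stretch and below 0 for the remainder, except in the ligands list, at 0.0002 and 0.15, where the points below 0 in the terminal stretch are GPNMB and AGR2.

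The log2 ratios were also described by strand, level and GC content, within the stretches that these same ratios had chosen. On the plus strand 42 of 52 genes of the terminal stretch were above 0 (median 0.27) and on the minus strand 42 of 48 (0.35). In the remainder the medians were -0.17 and -0.16. When members were divided into 3 classes by level, with limits that divide all compared genes evenly, the low class had medians of 0.095 in the terminal stretch and -0.14 in the remainder, the middle class 0.36 and -0.16, and the high class 0.32 and -0.18. The smallest medians were those of low genes.

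The median GC content of the main transcripts was 49.2% in the terminal stretch and 48.7% in the remainder. In 3 classes of GC content, the medians in the terminal stretch were 0.19, 0.36 and 0.28 from low to high GC, and in the remainder -0.15, -0.15 and -0.20. Protein-coding genes were above 0 in 76 of 86 cases in the terminal stretch and in 89 of 432 in the remainder. Pseudogenes, whose reads can be shared with their parent genes, were above 0 in 2 of 4 and in 12 of 48.

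In the terminal stretch 74 genes had 2 main transcripts with at least 100 reads each over both libraries, and both were above 0 in 54, both below in 5 and split in 15. In the remainder the counts were 30 above, 181 below and 111 split of 322. Transcripts add up to the gene ratios that chose the stretches, so these counts are not a separate check. No share over all genes is given beside them. Genes under 1 RPKM in both libraries, which are not members, were compared by their reads. In the terminal stretch 27 such genes with at least 20 reads had together 1232 against 965 reads, a log2 ratio of 0.35 (interval 0.22 to 0.47), with 14 of 27 above 0. In the remainder 128 such genes had 3692 against 4398 reads, -0.26 (interval -0.32 to -0.20), with 44 of 128 above 0. The medians over these genes were 0.13 in the terminal stretch and -0.25 in the remainder. Both intervals take the pooled reads as 1 draw and leave out the spread between genes, so a few genes can carry them. On other chromosomes 1144 of 2707 such genes were above 0, with a median of -0.087.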

How the data were processed

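Poly(A) RNA of 2 SAS cell samples, 1 per group, was sequenced. TRIzol was used for extraction and a TruSeq kit without strand marking for the libraries, per the labels' protocols. The authors deposited 1 table of 134092 transcripts, 6281 of them on chromosome 7, which holds for each library estimated counts of reads (not scaled to depth) and RPKM, per the file headers. Per the submitters' processing notes the genome build is hg38. The aligner, quantifier and annotation release were not given in the sources used here. On chromosome 7, 99.9% of transcripts have the same identifier in GENCODE release 29, and stops minus 1 equal the annotated ends, so this end is printed. In 17 chromosome 7 lines a date was turned back into the gene name (SEPT7).

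RPKM and estimated reads were summed per gene. Genes that reached 1 RPKM in at least 1 of the libraries were compared, with a pseudocount of 1 RPKM and no further scaling. Departure is the log2 ratio minus the median of the 20 nearest compared genes, 10 on each side. Intervals are exact (Clopper-Pearson) 95% binomial intervals of the rounded reads scaled to listed reads.

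The genes named are PYCARD, the 10 largest and 10 smallest departures among plainly named genes of at least 5 RPKM, the 5 compared genes on each side of the position, up to 3 per list, the 5 most abundant per stretch and those nearest the filter; other names were chosen after their values were seen. Some genes that the rule names are not reported here. The members and the 8 lists were chosen with earlier results of these data known. Alternatives were other pseudocounts, filters and positions, centring, TMM scaling with edgeR 4.0.16, the highest transcript, CPM, plainly named genes, and other numbers of neighbours. Promoter sequences are from RefSeq (GRCh38.p14). Python 3.11.15, pandas 2.3.3 and scipy 1.17.1 were used.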

Additional observations from a re-analysis of the deposited data

How the results depend on the processing

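No paired analysis was possible because each group has 1 library. The medians of both stretches kept their signs under all alternatives run. Without a filter on low values the terminal median was 0.12 (72.0% of genes above 0) and that of the remainder -0.072 (31.7%). With the position moved 5 megabases up, the terminal stretch had 0.21 (67.7%), and a pseudocount of 3 RPKM gave the remainder -0.14. Genes under 1 RPKM, compared by reads, gave medians of 0.13 (51.9%) and -0.25 (34.4%); this alternative, removal of a trend on GC content and leaving out genes past 1.5-fold were chosen after seeing the data. The gene after the best split was NFE2L3 in 10 of 12 alternatives. Centring could not change the split, and TMM scaling, with factors of 0.999 and 1.001, could hardly do so. With CPM the gene after the split was C7orf31 (start 25134697), and without a filter it started at 7640752. The running median first fell below 0 at a start of 10451311 without a filter, 16753535 with CPM, 20328299 over 11 genes and 23235967 over 41 genes.

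Counts past a fold depend on the scale. Genes at least 2-fold higher, 5 here, were 1 with a pseudocount of 3 and 10 with CPM. Those at least 2-fold lower, 5 here, were 10 with a pseudocount of 0.1, 0 with 3, 2 with a filter at 5 RPKM, 2 among plainly named genes and 3 with at least 1 RPKM in both libraries. Those at least 1.5-fold higher, 19 here, were 12 with a pseudocount of 3. Those at least 1.5-fold lower, 21 here, were 50 with a pseudocount of 0.1, 8 with 3, 13 with a filter at 5 RPKM and 43 with CPM. Genes departing upward were 9 with a pseudocount of 3, and those departing downward 20 with 0.1, 5 with 3 and 7 with a filter at 5 RPKM. The 20 genes named for departure kept 1 sign throughout, but they had been picked for the largest departures. MLXIPL ran from -0.71 to -0.26 and SDHAF3 from 0.19 to 0.72. The cause of these differences was not tested. At 62 to 220 reads, as for IL6, depth limits the ratio to a wide interval.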
